A study of Mus musculus with 6 samples.

Results

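Of the 8 small RNA species in the deposited table, 3 carry no mouse miRBase name: PC-3p-12307_23, bta-miR-2284ab and cgr-miR-1260_R+1. They were taken by name alone, as the rows whose species name does not begin with mmu, so no measured value chose them among the 8. The labels do not say how the 8 rows themselves were selected. The libraries were made from extracellular vesicles of RAW264.7, a mouse macrophage-like line that forms osteoclasts under the cytokine RANKL, and the labels name 3 control libraries and 3 from cells given RANKL at 50 ng/ml. All groups are 1 cell line, and the labels do not say whether the numbered samples were separate cultures. The series' design text gives medium with fetal bovine serum for both groups, while the labels' protocol describes 5 days of RANKL followed by 48 h in vesicle-depleted serum for osteoclasts and gives no such step for the controls. The per-library values stand in 12 columns without names, so no level, depth, replicate spread or response to RANKL was analysed here, and no vesicle or osteoclast marker could be checked. The results are the sequence, position, annotation and fold of each species.

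Small RNA libraries hold more than miRNAs. A miRNA is cut from the stem of a hairpin and loaded into Argonaute, where its seed (nt 2 to 8) guides it to mRNAs. C/D box small nucleolar RNAs (snoRNAs) are short stable RNAs that guide methylation of ribosomal RNA and are released from introns, with box D near the 3' end beside a short terminal stem. Transfer RNAs (tRNAs) receive the triplet CCA at their 3' end after transcription, and fragments of both RNA classes are known in vesicle and cell libraries. Reads of such fragments fall in the length range of miRNAs, 18 to 26 nt here per the labels' protocols.

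The sequences below carry the findings, and positions are 1-based. Those of the annotations are GRCm38, which is assumed for the deposited hairpins, as their build is not stated. The hairpin of the candidate holds a GENCODE snoRNA at its annotated position. The cattle-named and hamster-named loci were not checked in this way. The candidate is shown with its seed in capitals. The snoRNA transcripts of GENCODE M21 are shown with the stretch shared with the candidate in capitals, because both copies hold it.
PC-3p-12307_23 (chr5:23852261-23852281, plus): aAAGGATTtacctgaggccaa
Snord93 (chr5:23852210-23852280, plus): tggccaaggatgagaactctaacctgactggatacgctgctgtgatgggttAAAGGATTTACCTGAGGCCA
Mir3096 (chr5:23710991-23711061, minus): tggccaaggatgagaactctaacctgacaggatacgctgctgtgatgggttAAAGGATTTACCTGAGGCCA
For the species named for cattle the listed mouse hairpin is shown, with the stretch it was aligned to in capitals.
bta-miR-2284ab locus (chr10:121769887-121769987, plus): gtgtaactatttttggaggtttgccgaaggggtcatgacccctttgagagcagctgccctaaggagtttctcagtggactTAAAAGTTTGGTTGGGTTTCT
The species named for hamster is shown with its seed in capitals, followed by the mouse hairpin listed for it with the aligned stretch in capitals. Last comes the 3' part of a mouse leucine tRNA gene, from RefSeq's GRCm38.p6 promoter window of Polr3e, with the last 15 nt of the tRNA gene in capitals and 10 nt of flank.
cgr-miR-1260_R+1: aTCCCACCgctgccaccaa
cgr-miR-1260_R+1 locus (chr11:34430545-34430574, plus): ttaagaatctcATCCCACCTCTGCCACCAA
n-TLaag4 3' part (chr7:120917528-120917608, plus): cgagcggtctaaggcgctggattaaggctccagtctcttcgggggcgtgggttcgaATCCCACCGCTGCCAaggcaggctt

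The candidate PC-3p-12307_23 shared its first 20 nt with the 3' ends of 2 snoRNA genes, not of 1. In Snord93, a C/D box snoRNA, the shared stretch was nt 52 to 71 of 71. The same stretch was nt 52 to 71 of a gene that GENCODE names Mir3096 and types as a snoRNA, on the minus strand of the same chromosome at 23710991 to 23711010. Between the genes lie 141148 bp. They were identical at 70 of 71 nt and differed by T29A, written as the Snord93 base, the position counted from the 5' terminus and the Mir3096 base. That position lies outside the shared stretch, so 20 of the 21 nt of the candidate cannot assign a read to either copy. The last nt of the candidate is the genomic base after Snord93, and the base after Mir3096 was not in the sequences used here. Both genes lie in intron 2 of a noncoding host on the host's own strand. The host of Snord93 is 2700038G22Rik, with an intron of 562 bp (23852156 to 23852717), and that of Mir3096 is AI506816, with an intron of 707 bp (23710409 to 23711115).

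The listed hairpin of the candidate was the folded snoRNA with flanks. Its 123 nt held all 71 nt of Snord93 with 25 nt before and 27 nt after. In the minimum energy fold (RNAfold), 15 of the 21 nt of the candidate were paired, and their partners ran from nt 26 to nt 45 of the hairpin, which are nt 1 to 20 of Snord93. By the GENCODE bounds, the candidate thus paired with the other end of the same snoRNA and with no base of the flanks. RefSeq starts Snord93 at 23852233 and GENCODE at 23852210, and all these partners lie before the RefSeq start. By the RefSeq bounds the partners are thus in the flank. The same 15 nt count was found when Snord93 was folded alone, at -20.4 kcal/mol for 71 nt, and when Mir3096 was folded alone, at -24.4 kcal/mol, in both cases with partners from nt 1 to nt 20. The outermost 5 nt at each end of Snord93 were complementary to each other. CTGA, the letters of box D, was searched on the sense strand and stood at nt 24 to 27 and nt 63 to 66 of Snord93, the second within the candidate. It is a common tetramer: 79.5% of the 1507 GENCODE snoRNA transcripts held it, and 35.4% held it within their last 20 nt.

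**Figure D1:**
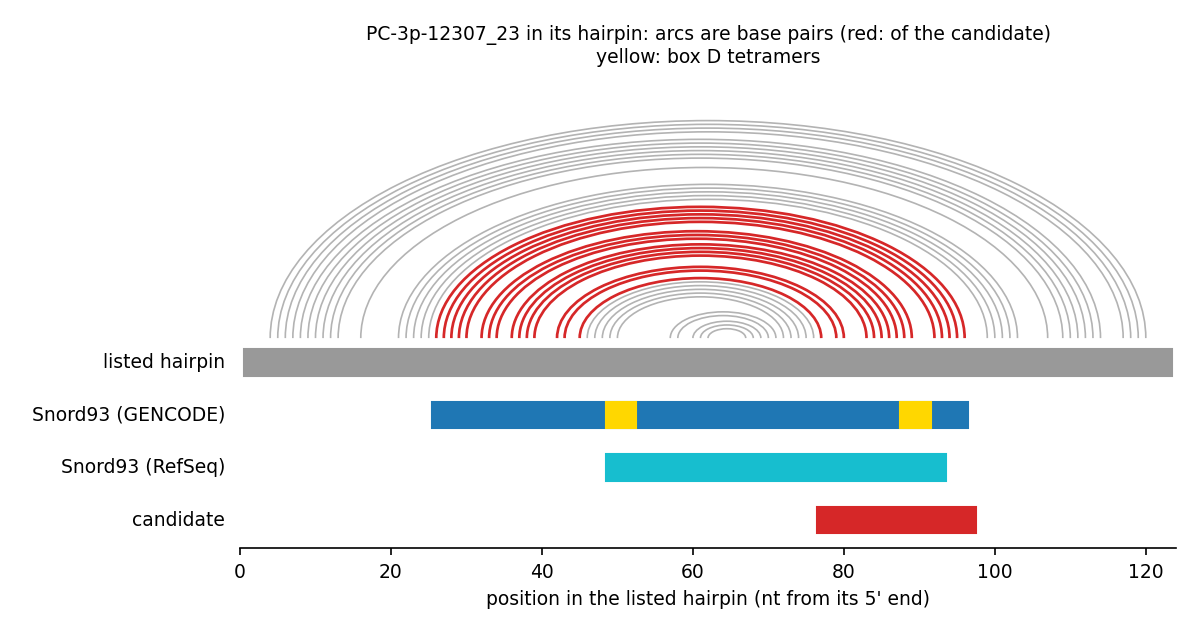
Map of PC-3p-12307_23 on its 123 nt listed hairpin (x axis, nt from the 5' end), with Snord93 in both annotations, box D tetramers in yellow and base pairs of the minimum energy fold as arcs. The red arcs, those of the candidate, all end in nt 26 to 45, the first 20 nt of Snord93 in GENCODE, before its RefSeq start.

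Registered mouse miRNAs inside snoRNAs are few but known. Of 1679 mature mouse miRNA names in RefSeq's table, 13 (0.774%) had their whole sequence in a GENCODE transcript typed as a snoRNA, on the sense strand. Among them were miR-1291, within Snora34, and both arms of miR-664, within Snora36b, which are snoRNAs of the H/ACA class. miR-5121, within Snord33, is an example from the C/D class of Snord93. The 13 names are not 13 separate hairpins, as several hairpins give both arms. For both arms of miR-3068 and of miR-677, the transcript typed as a snoRNA carries the miRNA's own gene name, Mir3068 or Mir677. The count took only whole sequences within a transcript. The candidate runs 1 nt past the GENCODE end of the gene, so it could not be among the 13. In the shorter RefSeq bounds of Snord93 (23852233 to 23852277, 45 nt), 17 of its 21 nt were inside. As both annotations set the end differently, the number of nt past it depends on the annotation.

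The species named cgr-miR-1260_R+1 matched the 3' end of a mouse tRNA at 18 of its 19 nt. Its nt 1 to 15 were identical to the last 15 nt of n-TLaag4, a leucine tRNA gene with anticodon AAG at chromosome 7, 120917517 to 120917598, and the match ended at the last base of the gene (120917584 to 120917598). Its nt 16 to 18 are CCA, the triplet that mature tRNAs carry. The genome does not encode CCA after n-TLaag4, so the 3 nt match the RNA and not the gene. The last nt, A, is the base that the table's name counts as added to the registered miRNA. The mouse locus that the table lists for this species, in an intron of Dock2 on the opposite strand, also matched at 18 of 19 nt, with the substitution G9T (the base of the species, its position, then the base of the locus). Position 9 is among the 15 nt identical to the tRNA gene. The last nt, outside the tRNA match, is identical at the listed locus. Which of them the reads came from was not tested.

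Read against the cloverleaf, the species began inside the T loop of this tRNA. The 7 nt loop is flanked by 5 nt that are complementary to 5 nt on its other side (120917574 to 120917590). The first nt of the species was the sixth nt of the loop, so 2 of its nt lay in the loop, 5 in the 3' strand of the T stem and 8 in the part after the stem, which forms the acceptor end. Fragments that start in the T loop and end with CCA are a known class of tRNA-derived small RNAs. The gene ends 146 bp before the annotated start of Polr3e, on the same strand as read here. Polr3e encodes a subunit of RNA polymerase III, the enzyme that transcribes tRNA genes. The first 11 nt of the tRNA gene lie outside the window and were not used here.

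The 15 nt stretch was rare in the sequence that could be searched. On either strand, ATCCCACCGCTGCCA occurred in 1 of 32851 promoter windows (0.00304%), that of Polr3e, and in 2 of 141767 GENCODE transcripts (0.00141%), both of Washc1. Washc1 encodes a subunit of the WASH complex, which nucleates actin on endosomes. The Washc1 match ran to 17 nt, at chromosome 17, 66119071 to 66119087, plus strand, within coding sequence of exon 11 of 11. It broke off inside the CCA triplet, with the differences A18C and A19C (the base of the species first, then that of Washc1). The strand opposite to the lincRNA AC122252.2 differed at as many nt, by A1C and A19C, and its match held the whole CCA triplet. The whole transcripts and windows amount to 250.2 Mb and leave out most introns and intergenic sequence.

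Few tRNA genes could be read. RefSeq's table lists 430 tRNA genes without strand, and 23 of them had the outer 15 nt of at least 1 end in a promoter window or GENCODE exon, which gave 37 ends, each read as if it were the 3' end. Some genes were read at both ends, so at most 23 of the 37 can be 3' ends. Of the 37 ends, 1 matched nt 1 to 15 of the species without a mismatch, that of n-TLaag4. The next nearest, n-TTagt9, a threonine tRNA gene, had 3 mismatches. Of 25 leucine tRNA genes, of which 5 have the anticodon AAG, 3 had an end that could be read, so other copies with the same end are neither shown nor counted. None of the 22 mitochondrial tRNAs in GENCODE, with CCA added, held nt 1 to 18 of the species, and the nearest differed at 6 of these 18 nt.

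**Figure D2:**
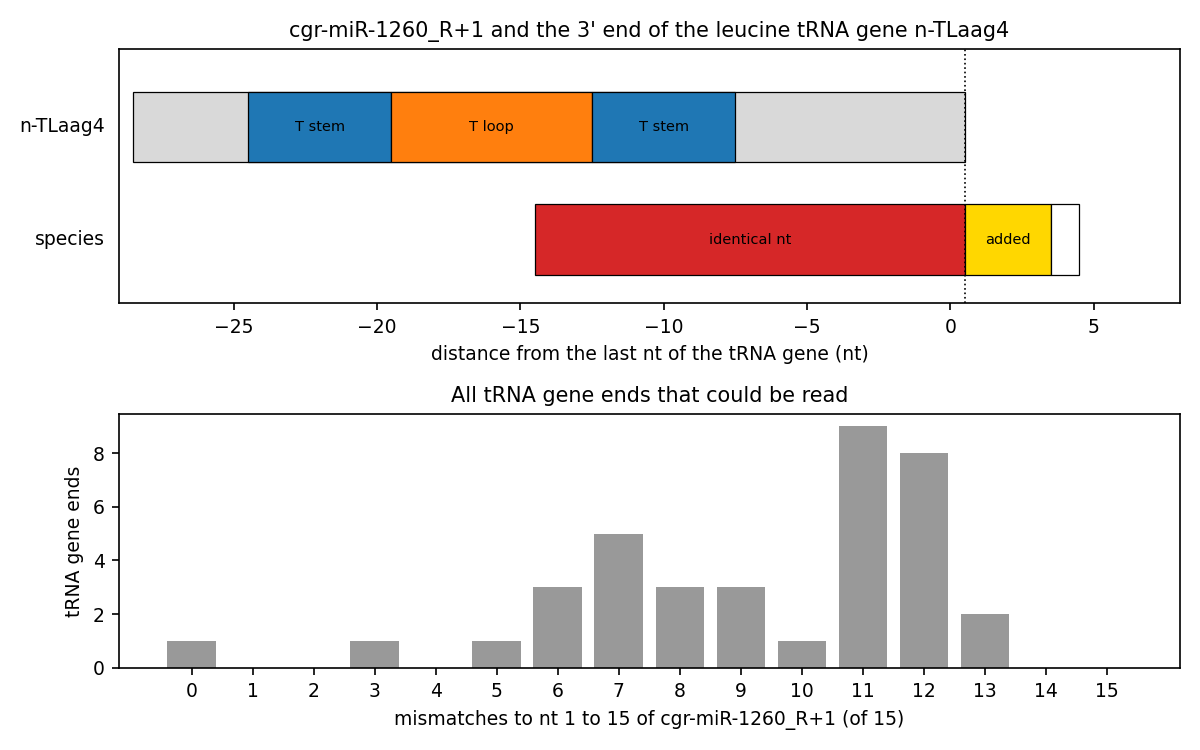
Top, nt 1 to 15 of cgr-miR-1260_R+1 (red), its CCA (yellow, marked as added) and its last nt (white) against the T arm of n-TLaag4, by distance from the last nt of the gene. Bottom, number of tRNA gene ends (y axis) by mismatches to nt 1 to 15 of the species (x axis), with 1 of 37 ends at 0 and the next at 3. The ends are of 23 genes, some read at both ends, so at most 23 are 3' ends.

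The species named bta-miR-2284ab had no match of this kind. It is identical over 21 nt to the registered cattle miRNA and differs from the listed mouse locus by T20C, the base of the species first. With 0 or 1 mismatch it occurred in none of the transcripts or windows on either strand, which do not cover the listed locus. With 2 mismatches it occurred in 3 genes on the sense strand. One was in the 3' UTR of Nfia, which encodes a transcription factor (chromosome 4, 98111963 to 98111983, A3T and A4C), and another in that of Nudt5, which encodes a nucleotide-sugar hydrolase (chromosome 2, 5868557 to 5868577, G6A and T9A). The third was in the lincRNA Gm14342 (chromosome 2, 180830018 to 180830038, minus strand, T1A and G10T). Its composition is skewed: 11 of its 21 nt are T, 6 are G, 4 are A and 0 are C. The listed hairpin lay between BC048403, 17009 bp away, and Srgap1, 11004 bp away, and the stretch aligned to the species overlapped no gene in GENCODE or RefSeq. The series' design text gives fetal bovine serum for both groups. Whether the reads came from cattle RNA or from the listed mouse locus was not tested.

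The arm of the hairpin differed between the registered precursors and the mouse loci listed in their place. In the registered 60 nt cattle precursor the miRNA is nt 1 to 21, the 5' arm, with 39 nt after it. In the 101 nt mouse hairpin the species was placed at nt 81 to 101, the 3' arm, with 0 nt after it. In the registered 80 nt hamster precursor, miR-1260 is nt 10 to 27, on the 5' side, with 53 nt after it. In the 30 nt mouse hairpin the species was placed at nt 12 to 30, again with 0 nt after it. The authors' deposited table gives the 3' arm for all 3 species without a mouse name and for 0 of the 5 mouse miRNAs. The names of the 5 mouse miRNAs already state the 5' arm, and that of the candidate the 3' arm. The cattle-named and hamster-named hairpins stop at the last nt of the species, which leaves only the 3' side. The contrast thus follows from the names and from how the hairpins were cut. No test was made, and the labels do not say how these 8 rows were selected.

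Pairing was lower in the listed mouse hairpins than in the registered precursors, but these sequences were not cut alike. Both mouse hairpins end at the last nt of the species, and the hamster-named one has only 11 nt before it. Folds with more flank were not run, so the counts describe the listed stretches only. Folded with RNAfold, the cattle precursor reached -19.2 kcal/mol over 60 nt with 18 of the 21 nt of the miRNA paired, against 11 of 21 nt at the mouse locus, which reached -31.2 kcal/mol over 101 nt. The hamster precursor reached -14.0 kcal/mol over 80 nt with 12 of the 18 nt of the miRNA paired, against 0 of 19 nt at the mouse locus. That locus formed no pair in the minimum energy fold, at 0.0 kcal/mol. The structure deposited for it has 3 pairs, and the authors' deposited table lists an energy of 1.2 for it, above that of the unfolded RNA if the unit is kcal/mol. RNAeval gave the same value, 1.2 kcal/mol, for the deposited structure. For the cattle-named locus the authors' deposited table lists -35.3, while RNAeval gave the deposited structure -26.1 kcal/mol. Folding with the older Turner energy parameters that come with RNAfold gave -37.2 kcal/mol there, so the energy at this locus moved more with the parameters than that of the candidate, which was -34.5 with the default and -35.4 kcal/mol with the older set.

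The mouse miRNAs of the table served for comparison. In their folds 17 to 19 nt of each species were paired, against 15, 11 and 0 nt for the candidate, the cattle-named and the hamster-named species. The lengths differ little, at 19 to 21 nt for the 3 and 20 to 24 nt for the 5. Per nt of hairpin the energies were -0.280, -0.309 and 0.000 kcal/mol for the 3, in the same order, and ran from -0.618 to -0.373 kcal/mol for the 5 mouse miRNAs. With the older Turner parameters the cattle-named hairpin and that of miR-330-5p both had -0.368 kcal/mol per nt, so on this measure the cattle-named hairpin was no longer apart from the mouse miRNAs. These are descriptions of 8 listed rows, with no replicate and no test. The hairpins differ in flank, with 0 nt after the cattle-named and the hamster-named species.

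**Figure D3:**
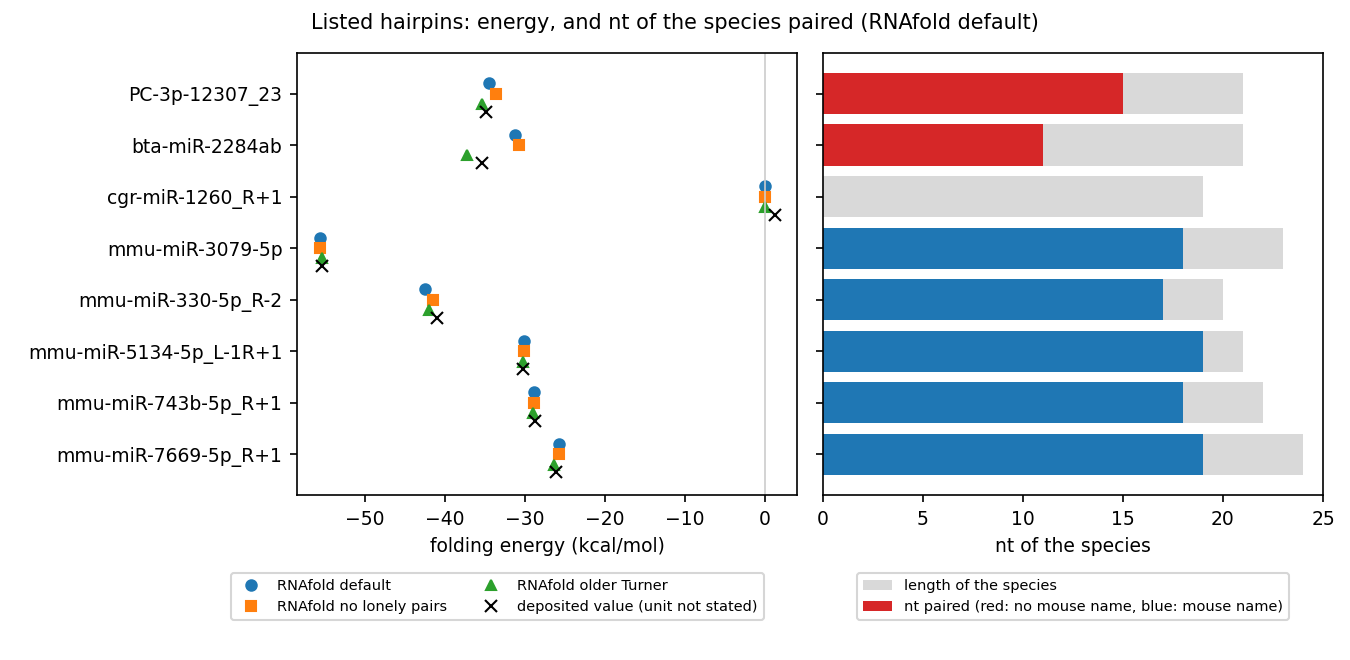
Left, folding energy of each listed hairpin under 3 RNAfold settings, with the deposited value beside them (x axis, kcal/mol). Right, length of each species in grey and the nt of it that are paired in colour, 15, 11 and 0 for the species without a mouse name (red) and 17 to 19 for the mouse miRNAs (blue).

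None of the 3 species was close to a mature mouse miRNA in RefSeq's table. Each was compared without gaps, at shifts of up to 4 nt, with the 1679 mature mouse miRNA names. Mir3096 carries a miRNA gene name, but no name compared held its 20 nt shared with the candidate at these shifts. Names outside that table were not compared. The most identical positions were 13 of 21 for the candidate, with miR-6977-3p, and 12 of 21 for the cattle-named species, where several miRNAs tied. For the hamster-named species they were 14 of 19, with miR-3968. The candidate shared its 7 nt seed with 1 mouse miRNA, miR-8095, while the others shared theirs with none. The candidate and miR-8095 are alike in the seed and differ beyond it, as printed here from RefSeq's GRCm38.p6 table with seeds in capitals. miR-3968 is printed as the nearest to the hamster-named species.
mmu-miR-8095 (chr16:22532128-22532149, minus): aAAGGAUUcugcugucuguccc
mmu-miR-3968 (chr11:115447969-115447989, minus): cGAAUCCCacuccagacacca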

How the data were processed

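The 6 libraries of the series hold small RNA of vesicles, from 3 control and 3 RANKL-treated samples. The authors used ACGT101-mir, per the labels' protocols, kept lengths of 18 to 26 nt and filtered against mRNA, RFam and Repbase. No source used here names its version, the miRBase release or the genome build. The deposited table of 8 rows has no header line. Its percent value is the GC content of each hairpin, recomputed here, and its folding energy is a deposited score with no stated unit. Its 12 columns of per-library values carry no names and were not used, so the planned comparison of RANKL with control could not be run, and depth and precision are not given.

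Species were placed in their listed hairpin without gaps. They were searched on both strands of 141767 GENCODE M21 transcripts and 32851 RefSeq GRCm38.p6 promoter windows (250 nt before to 50 nt after each start) with up to 2 mismatches, a search tested on simulated data. No genome sequence was used. The ends of tRNA genes were read from windows and exons. Folds were made with RNAfold 2.7.2 and its default parameters, and the deposited structures were scored with RNAeval. Python 3.11.15, numpy 2.4.6 and matplotlib 3.10.9 were used. All 3 species are named. Other genes are named where a species, its hairpin or a match overlaps them or lies nearest, though not every gene matched with 2 mismatches is named. Registered miRNAs are named where they share a seed or are nearest. Exceptions chosen after their values were seen are the miRNAs within snoRNAs and n-TTagt9. The members, lists and analyses were chosen with earlier results of these data known.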

Additional observations from a re-analysis of the deposited data

How the results depend on the processing

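No paired analysis was possible because the value columns have no names that would give a replicate or group, and other settings for levels (pseudocount, filter, libraries left out) and hairpins extended by flank were not run, the latter because no genome sequence was used. Of 22 alternatives, 13 gave the same value or, for a count, one close to it. Genes matched numbered 0 for each species at full length without mismatch. They rose to 2 for PC-3p-12307_23 without the last nt of the species, and with 2 mismatches to 3 for bta-miR-2284ab and 4 for cgr-miR-1260_R+1, since each allows more matches. With the seed cut to nt 2 to 7, bta-miR-2284ab and cgr-miR-1260_R+1 each shared it with 1 mouse miRNA in place of 0 (miR-3473g and miR-188-3p). Without lonely pairs the hairpins of PC-3p-12307_23 and bta-miR-2284ab folded to -33.6 and -30.7 kcal/mol. With the older Turner parameters, chosen after seeing the data, they folded to -35.4 and -37.2 kcal/mol. The cause was not tested. The match of cgr-miR-1260_R+1 to 1 tRNA end was the same with 1 mismatch allowed, among the 23 of 430 tRNA genes that could be read.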

Other observations

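The readable tRNA gene ends were also compared with the registered mouse miRNAs. Of 1679 mature mouse miRNA names, 1 held the last 15 nt of any of the 37 ends: nt 5 to 19 of the 21 nt miR-5100 were those of the threonine tRNA gene n-TTagt9 read on the minus strand (chromosome 7, 35234770 to 35234843). RefSeq places miR-5100 elsewhere, on chromosome 11. miR-5100 was also among the 5 miRNAs most like cgr-miR-1260_R+1, with 13 identical nt, as was miR-3963, also with 13.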
